A study of Homo sapiens with 16 samples.

Results

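SETDB1, the enzyme, and H3K9me3, the mark it makes, were compared in control HCT116 cells as the peak lists of 1 SETDB1 and 1 H3K9me3 chromatin immunoprecipitation (ChIP-seq) library. The members are all peaks of these libraries on chromosomes 1 to 22 and X. Called against input DNA they were 79404 SETDB1 peaks and 92063 H3K9me3 peaks, together 171467 of the 724562 peaks in the 10 input lists of the series. Called against IgG they were 114369 and 226527 peaks, which brings the members to 512363 of 2616578 peaks in 20 lists. The input lists are used below unless IgG is named. A peak with the mark is a SETDB1 peak that shares at least 1 bp with an H3K9me3 peak.

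HCT116 is an established human colon cancer cell line, and the study asked how the chromatin remodelling subunit ARID1A relates to heterochromatin. Its 16 samples came from cells with an shRNA against ARID1A (shARID1A), cells with a control shRNA (shCtrl) and cells for which no shRNA is named, called unmodified here. The shCtrl cells are the ones described below, and carried ARID1A, H3K9me3, TRIM28 and SETDB1 libraries besides input and IgG. shARID1A cells carried H3K9me3, TRIM28 and SETDB1 libraries, and unmodified cells ARID1A, H3K9me3 and TRIM28 libraries. All cells were grown in RPMI1640 with serum and cross-linked with formaldehyde. Neither the shRNA sequences nor whether a line was 1 clone is given in the sources used here. Each library stands alone, so no value below has a replicate check, and every interval covers counting error only. Both libraries are assumed to have been called against the same input and the same IgG sample, so a dip in that control can give peaks to both lists at the same place.

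SETDB1 is a methyltransferase that adds methyl groups to lysine 9 of histone H3. Zinc finger proteins with a KRAB domain bind DNA, often in retroelements, and bring the corepressor TRIM28, which in turn brings SETDB1. ATF7IP binds SETDB1 and keeps it in the nucleus, and the trimethylated lysine is read by HP1 proteins such as CBX5. SETDB1 has also been found at sites without the mark, among them promoters.

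The H3K9me3 label was checked at the zinc finger genes of chromosome 19, whose bodies are known for this mark. In shARID1A cells 113 of 246 of these genes held an H3K9me3 peak (45.9%), against 28 (11.4%) in shCtrl cells and 34 (13.8%) in unmodified cells. Over all 19974 protein-coding genes the shares were 46.8%, 46.8% and 13.6% in the same order, so the shCtrl library fell far below its own background at the genes that should carry the mark. Against IgG the zinc finger genes with a peak were 204 in shARID1A cells, 155 in shCtrl cells and 87 in unmodified cells, which is 82.9%, 63.0% and 35.4% beside 85.35%, 77.95% and 26.3% of all genes. ARID1A and TRIM28 of shCtrl cells were also low there against input, at 17.9% and 26.0% beside 52.4% and 40.4% of all genes. SETDB1 was at 54.5% beside 58.7%. The shARID1A H3K9me3 list was not above its own background either. These genes thus do not bear out the label in shCtrl cells, but the shortfall was not particular to this library and cannot decide the label. The antibody product named for H3K9me3 differs between the protocol and the sample characteristics. H3K9me3 below means the library labelled so in shCtrl cells, and the main results are given again with the list labelled H3K9me3 in shARID1A cells, which was chosen after the data were seen.

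The promoters below are shown for the difference in letters between SETDB1 promoters with and without the mark. Letters of peaks away from promoters were not compared. Each is the 250 bases before a RefSeq start site in GRCh38.p14, written 5′ to 3′ along the strand of its gene, with every CG dinucleotide and every match to TGANTCA in capitals. They were chosen after their values were seen, among protein-coding genes in the same class against input and IgG whose peaks against input were strong, a strong peak being one with a q of at most 0.05. ARHGAP32, a GTPase-activating protein, had the highest H3K9me3 fold of all 53 such promoters with both peaks (chr11:129024189-129024438, minus strand). CYP19A1, the aromatase that makes oestrogen (chr15:51243916-51244165, minus strand), MEF2C, a transcription factor of muscle and neurons (chr5:88785512-88785761, minus strand), and CXCL8, the neutrophil chemokine interleukin 8 (chr4:73740319-73740568, plus strand), had the highest H3K9me3 folds among the 28 of them with TGANTCA in this stretch.
ARHGAP32: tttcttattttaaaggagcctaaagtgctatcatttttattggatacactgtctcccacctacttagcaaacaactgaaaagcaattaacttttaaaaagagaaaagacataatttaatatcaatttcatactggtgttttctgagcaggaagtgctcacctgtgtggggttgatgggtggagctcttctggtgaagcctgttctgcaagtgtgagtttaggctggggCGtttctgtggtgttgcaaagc
CYP19A1: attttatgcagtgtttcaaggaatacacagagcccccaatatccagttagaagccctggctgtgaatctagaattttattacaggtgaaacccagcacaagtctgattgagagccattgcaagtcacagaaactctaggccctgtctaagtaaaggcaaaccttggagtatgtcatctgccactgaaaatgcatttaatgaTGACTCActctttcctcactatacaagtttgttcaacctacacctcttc
MEF2C: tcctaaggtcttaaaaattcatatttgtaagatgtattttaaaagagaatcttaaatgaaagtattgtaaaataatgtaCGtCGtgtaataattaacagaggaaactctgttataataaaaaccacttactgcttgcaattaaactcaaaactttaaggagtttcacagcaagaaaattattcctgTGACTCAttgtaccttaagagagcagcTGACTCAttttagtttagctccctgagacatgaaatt
CXCL8: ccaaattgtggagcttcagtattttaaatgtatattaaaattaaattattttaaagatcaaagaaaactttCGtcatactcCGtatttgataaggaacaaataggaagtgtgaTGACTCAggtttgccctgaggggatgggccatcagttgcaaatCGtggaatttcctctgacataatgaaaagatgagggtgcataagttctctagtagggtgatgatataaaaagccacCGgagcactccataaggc
RPL27, a protein of the large ribosomal subunit (chr17:42998169-42998418, plus strand), HSP90AB1, a cytosolic chaperone (chr6:44246851-44247100, plus strand), and ISY1, a splicing factor (chr3:129161064-129161313, minus strand), had the highest SETDB1 fold of 1884 promoters with a strong SETDB1 peak and no H3K9me3 peak.
RPL27: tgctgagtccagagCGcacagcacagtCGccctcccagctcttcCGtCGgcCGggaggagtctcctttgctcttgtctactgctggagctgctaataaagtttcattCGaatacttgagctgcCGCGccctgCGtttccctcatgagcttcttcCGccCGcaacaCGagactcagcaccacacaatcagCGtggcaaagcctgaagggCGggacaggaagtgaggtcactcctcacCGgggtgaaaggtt
HSP90AB1: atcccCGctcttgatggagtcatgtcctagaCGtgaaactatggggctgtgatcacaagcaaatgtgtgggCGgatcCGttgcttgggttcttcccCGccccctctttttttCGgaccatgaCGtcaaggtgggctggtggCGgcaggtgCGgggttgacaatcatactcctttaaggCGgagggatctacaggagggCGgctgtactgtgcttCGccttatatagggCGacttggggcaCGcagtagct
ISY1: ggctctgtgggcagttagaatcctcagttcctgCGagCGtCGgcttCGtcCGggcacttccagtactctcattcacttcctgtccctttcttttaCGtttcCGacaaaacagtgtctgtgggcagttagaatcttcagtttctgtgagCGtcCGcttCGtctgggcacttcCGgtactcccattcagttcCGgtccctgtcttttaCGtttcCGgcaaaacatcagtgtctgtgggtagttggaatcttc
TMPRSS11F, a membrane serine protease (chr4:68129870-68130119, minus strand), and C1orf226 (chr1:162381478-162381727, plus strand) led the 6 promoters with a strong H3K9me3 peak and no SETDB1 peak.
TMPRSS11F: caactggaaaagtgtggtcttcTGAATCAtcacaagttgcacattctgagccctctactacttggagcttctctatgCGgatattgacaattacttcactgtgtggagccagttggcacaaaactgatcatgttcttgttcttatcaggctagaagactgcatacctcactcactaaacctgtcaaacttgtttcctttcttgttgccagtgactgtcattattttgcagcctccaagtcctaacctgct
C1orf226: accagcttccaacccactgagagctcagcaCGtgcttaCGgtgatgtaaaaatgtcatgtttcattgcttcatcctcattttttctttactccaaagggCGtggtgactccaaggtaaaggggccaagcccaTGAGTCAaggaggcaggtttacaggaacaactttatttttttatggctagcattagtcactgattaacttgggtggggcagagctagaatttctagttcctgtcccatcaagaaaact
The 4 promoters with both peaks hold 1, 0, 2 and 4 CG in these stretches, against 15, 14 and 14 in the 3 promoters with SETDB1 alone. TGANTCA is looser than the textbook AP-1 site, which has C or G in the middle, and also takes the TGAATCA of TMPRSS11F. It was part of the choice of CYP19A1, MEF2C and CXCL8, and ARHGAP32, chosen by fold alone, has none in this stretch. At these sites the SETDB1 fold was 11.3 at ARHGAP32, 6.22 at CYP19A1, 3.23 at MEF2C and 8.13 at CXCL8, and the H3K9me3 fold was 13.7, 6.77, 6.61 and 6.38 in the same order. SETDB1 alone reached 14.4 at RPL27, 14.3 at HSP90AB1 and 13.8 at ISY1. H3K9me3 alone reached 5.21 at TMPRSS11F and 5.12 at C1orf226.

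SETDB1 had the stronger of the 2 peak lists. Strong peaks made up 37702 of the SETDB1 list (47.5%) and 6833 of the H3K9me3 list (7.42%). In 8.02% of SETDB1 peaks and 70.1% of H3K9me3 peaks q was 1, so most H3K9me3 peaks passed only the caller's unadjusted threshold. Fold enrichment, the authors' ratio of signal at the summit to local background, had a median of 3.48 and a maximum of 40.8 for SETDB1, and a median of 2.76 and a maximum of 16.7 for H3K9me3. The median summit stood on 10 fragments for SETDB1 and 6 for H3K9me3 (9 and 5 against IgG), which limits what a single peak can show. Both libraries were scaled down to the input by similar factors, 0.7445 for SETDB1 and 0.7536 for H3K9me3.

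SETDB1 peaks were also wider, although both lists were narrow. The median width was 324 bp for SETDB1 and 247 bp for H3K9me3. The widest peaks were 10878 bp and 2638 bp, and 1704 SETDB1 peaks and 500 H3K9me3 peaks exceeded 1 kb. At the smallest width in the list stood 14.2% of SETDB1 peaks and 35.1% of H3K9me3 peaks. SETDB1 covered 30.5 Mb of the genome and H3K9me3 27.6 Mb, so neither list described the broad domains in which the mark is known to lie.

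About 1 in 5 SETDB1 peaks carried the mark. Of 79404 SETDB1 peaks 17739 overlapped an H3K9me3 peak (22.3%, exact Clopper-Pearson interval 22.05 to 22.63%), and of 92063 H3K9me3 peaks 18084 overlapped a SETDB1 peak (19.6%, 19.39 to 19.9%). Against IgG the shares were 27.4% and 14.2%. SETDB1 against input and H3K9me3 against IgG, lists that share no control, gave 26.7% and 9.55%, and the opposite pairing gave 14.5% and 18.3%. The share of enzyme sites with the mark thus lay between 14.5% and 27.4% over the pairings of controls.

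Strong H3K9me3 peaks mostly lay at SETDB1, while strong SETDB1 peaks mostly lay away from H3K9me3. Of 6833 strong H3K9me3 peaks 82.3% overlapped some SETDB1 peak and 65.3% a strong one. Of 37702 strong SETDB1 peaks 29.4% overlapped some H3K9me3 peak and 11.8% a strong one. With the H3K9me3, ARID1A and TRIM28 lists of shCtrl cells each at 70447 peaks, the length of the TRIM28 list, and the SETDB1 list whole, H3K9me3 lay at 20.1% of SETDB1 peaks, ARID1A of shCtrl cells at 9.48% and TRIM28 of shCtrl cells at 6.66%. With the top 10000 peaks of each, SETDB1 included, these shares were 22.3%, 5.88% and 2.02%, so H3K9me3 met SETDB1 more often than either other antibody of these cells did. With the H3K9me3 list of shARID1A cells in place, 20.05% of SETDB1 peaks carried the mark and 28.1% of H3K9me3 peaks lay at SETDB1, and with the short unmodified list 1.16% and 8.01%.

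A site was taken as firm where both controls gave it. Of SETDB1 peaks against input 63284 were found again against IgG. Of these 12643 (20.0%) had H3K9me3 in both lists, 40912 (64.65%) in neither, 2432 (3.84%) in the input list alone and 7297 (11.5%) in the IgG list alone. Of H3K9me3 peaks 55163 were found again, and 12786 of them (23.2%) had SETDB1 in both lists and 39452 (71.5%) in neither. SETDB1 without the mark was thus the larger class under either control.

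Enzyme sites with the mark were taller and wider than those without. Their median fold was 3.94, against 3.36 without the mark, and their median width 437 bp, against 305 bp. Strong peaks made up 62.55% of SETDB1 peaks with the mark and 43.15% of those without, and the summit stood on 12 and 10 fragments. H3K9me3 peaks showed a larger gap, with strong peaks at 31.1% of those with SETDB1 and 1.63% of those without. Their median fold was 3.16 with SETDB1 and 2.67 without, and their median width 359 bp and 231 bp. At shared sites the SETDB1 peak was the wider one in 62.9%, 712 SETDB1 peaks held 2 or more H3K9me3 peaks, and the folds ranked together only loosely (Spearman rho 0.27 over 17739 sites that share their input).

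The share with the mark was higher in taller and in wider SETDB1 peaks. In 10 classes of equal size by SETDB1 fold it was 13.4% in the lowest and 38.5% in the highest class. In 4 classes of equal size by width it was 10.7%, 14.4%, 20.25% and 43.9%. Among the narrowest SETDB1 peaks it stayed between 10.2% and 11.6% whatever the fold, and among the widest it lay between 32.2% and 50.5%. A wider peak also meets more peaks of any list. With the shARID1A H3K9me3 list the share was 9.85% in the lowest and 51.5% in the highest fold class, but by width the share was 11.8%, 18.4%, 26.2% and 23.8%, so the jump at the widest SETDB1 peaks was not seen with that list.

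**Figure D1:**
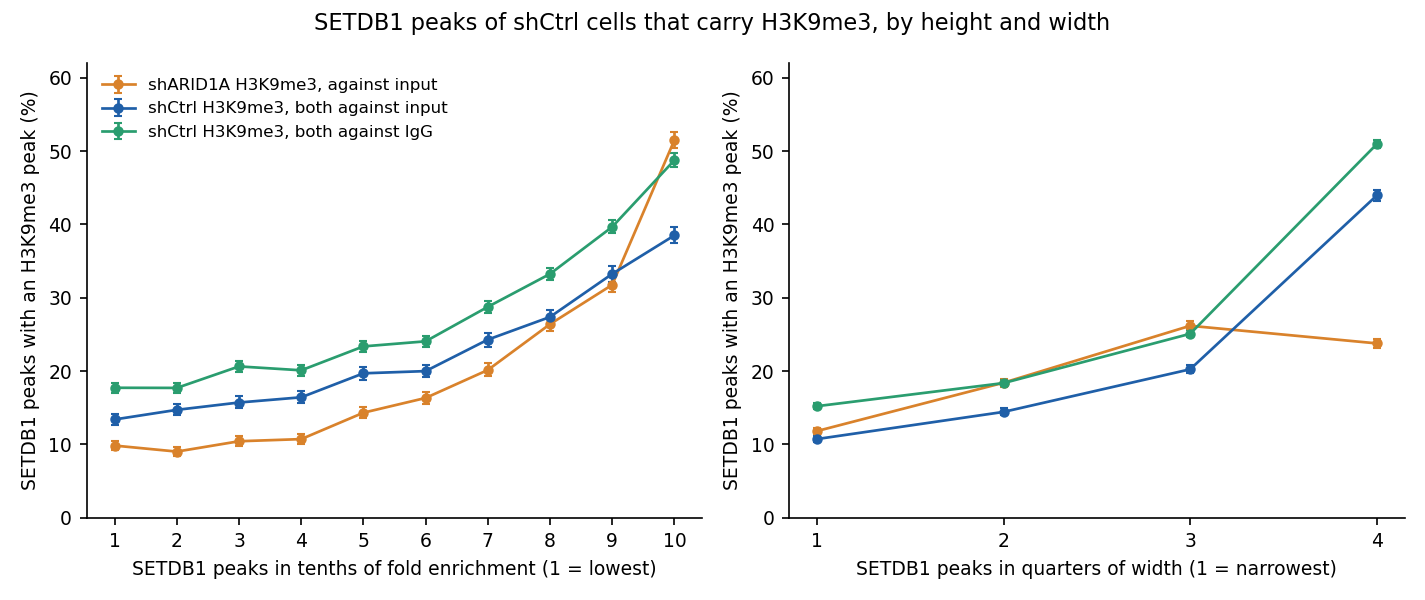
Share of shCtrl SETDB1 peaks that overlap an H3K9me3 peak (%), by classes of SETDB1 fold (left, 10 classes from low to high) and of SETDB1 width (right, 4 classes from narrow to wide). Lines are the H3K9me3 lists named in the legend and bars are exact 95% intervals; the shCtrl line reaches 38.5% in the highest fold class and 43.9% in the widest class, where the shARID1A line stands at 51.5% and 23.8%.

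Where enzyme and mark shared a site their summits lay close together, with a median distance of 98 bp and 51.0% within 100 bp. Overlap itself limits this distance, since the peaks there had median widths of 437 bp for SETDB1 and 367 bp for H3K9me3. Its contrast with sites that do not overlap is thus partly set by definition. SETDB1 peaks without the mark lay at a median of 7210 bp from the nearest H3K9me3 summit (quartiles 2477 and 18918 bp). Of these 61665 peaks 10.45% had one within 1 kb, 48.1% between 1 and 10 kb, 38.7% between 10 and 100 kb and 2.76% farther away. The share within 10 kb was 58.6% (58.16 to 58.94%). With the longer lists against IgG the median was 3207 bp and the share within 10 kb 85.2%. Between strong peaks it was 110559 bp, and 11.3% lay within 10 kb. In the other direction, H3K9me3 peaks without SETDB1 lay at a median of 10005 bp from the nearest SETDB1 summit.

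Libraries of other antibodies separated the 2 kinds of enzyme site. ARID1A of unmodified cells had a peak at 34.6% of SETDB1 peaks with the mark and at 4.51% of those without, a difference of 30.1 percentage points (Newcombe interval 29.4 to 30.8), and of 28.4 within classes of width and fold. ARID1A of shCtrl cells was at 27.2% and 11.5%, a difference of 15.7. TRIM28 of shCtrl cells was at 10.7% and 5.51%, a difference of 5.15, but with H3K9me3 called against IgG it was at 6.82% and 6.60% and the interval of the difference ran from −0.171 to 0.618. With the shCtrl H3K9me3 lists ARID1A thus lay more often at enzyme sites with the mark under each pairing of controls. For ARID1A of shCtrl cells part of that gap went with the width and fold of the peaks. For TRIM28 the gap depended on the control. With the shARID1A H3K9me3 list the sign turned, to −4.45 points (−4.92 to −3.95) for ARID1A of unmodified cells and −6.53 (−7.07 to −5.98) for ARID1A of shCtrl cells. Whether a bias shared by these libraries accounts for this was not tested.

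The tallest firm sites showed the same split more sharply. Among the 1000 tallest SETDB1 sites with H3K9me3 in both lists, 58% held ARID1A of unmodified cells and 52.1% ARID1A of shCtrl cells. Among the 1000 tallest with H3K9me3 in neither list, 1.9% and 17.2% did. The order was opposite for the H3K9me3 library of shARID1A cells, which lay at 40.1% of tall sites with the shCtrl mark and at 87.4% of those without. Against IgG these shares were 87.6% and 95.2%. SETDB1 of shARID1A cells lay at 9.7% and 46%, but against IgG at 58.8% and 51.1%, so its direction depended on the control. The 2 tall sets also differed in SETDB1 fold, with medians of 9.07 with the mark and 11.25 without. Over all firm sites H3K9me3 of shARID1A cells lay at 15.4% with the mark and 26.5% without. Against IgG it lay at 59.6% and 49.8%, so over all firm sites its direction depended on the control too. Most tall enzyme sites called without the mark in shCtrl cells therefore held a peak labelled H3K9me3 in shARID1A cells, and the absence of a shCtrl peak there cannot be told apart from a property of that 1 library.

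**Figure D2:**
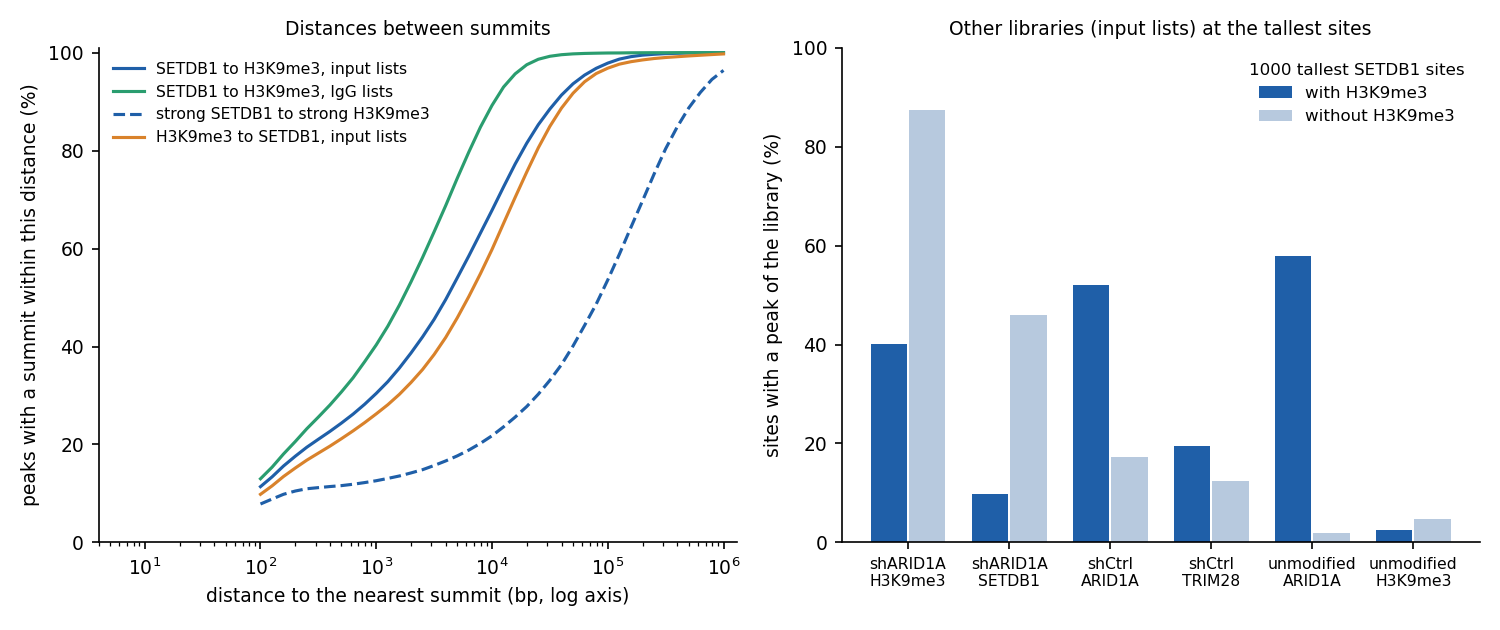
Left, share of peaks (%) with a summit of the other library within a given distance (bp, log axis), for all peaks of the lists in the legend; at 10 kb the curve of SETDB1 to H3K9me3 stands at 67.8% against input and at 89.2% against IgG. Right, share of the 1000 tallest firm SETDB1 sites with and without H3K9me3 (%) that hold a peak of each other library against input: ARID1A of unmodified cells stands at 58% and 1.9%, H3K9me3 of shARID1A cells at 40.1% and 87.4%.

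The genes with the tallest SETDB1 sites found against both controls and with H3K9me3 in both control lists were led by RAD51B, a homologous recombination protein, with a SETDB1 fold of 22.8 and an H3K9me3 fold of 3.10 at chr14:68615912-68617087. SERPINE2, a protease inhibitor, followed with 21.4 for SETDB1 and 3.81 for H3K9me3 at chr2:223995312-223996175. ARHGAP26, a GTPase-activating protein, had 19.2 and 10.2 at chr5:143033657-143034507, and PDGFC, a growth factor, had 17.3 and 9.87 at chr4:156931209-156931731. These last 2 were the only ones of the 12 genes with an H3K9me3 fold above 4. Others among the 12 were the lncRNA genes LOC105370364 and LOC101927421 and the protein-coding RNLS (an oxidoreductase called renalase), ARMH1, SAMD4A (an RNA-binding repressor of translation), RNF103-CHMP3 and APBB2 (an adaptor that binds the amyloid precursor protein). Their SETDB1 folds lay between 16.7 and 19.4.

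Tall enzyme sites found against both controls with H3K9me3 in neither list reached higher folds. KLHL24, an adaptor of a ubiquitin ligase, had a SETDB1 fold of 32.1 at chr3:183653173-183654094, and so did TP53TG1, a lncRNA gene named for its response to p53, at chr7:87328241-87328925. TRIM24, a chromatin reader of the same protein family as TRIM28, had 28.0 at chr7:138527627-138528045. The other 9 were the lncRNA genes LNCOC1, MSRB3-AS1, LOC124904536, MIR100HG (the host of a microRNA cluster) and LINC02901 and the protein-coding KIAA1755, TPST1 (a tyrosine sulfotransferase), COL21A1 (a collagen) and DEGS2 (a sphingolipid desaturase), with folds between 22.5 and 28.6. All 12 held a peak labelled H3K9me3 in shARID1A cells, as did 11 of the 12 with the mark. ARID1A of unmodified cells was at none of the 12 without the mark and at 3 of the 12 with it. None of the 12 sites with the mark, and none of the 11 without it that could be measured, lay within 1 kb of a start site; start sites on chromosome 8, which holds LNCOC1, were not used here.

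H3K9me3 peaks with no SETDB1 in either list were lower. SERTAD2, a transcriptional coregulator, led with a fold of 9.505, followed by USP6NL, a GTPase-activating protein of endocytosis, with 9.33, and ERC1, a scaffold of secretion sites, with 9.05. The lncRNA gene LOC105379168 had 8.72, NXPE2 8.33, RALGAPA2 (a GTPase-activating protein) 8.23, PAQR5 (a membrane progesterone receptor) 8.02 and WWOX, a tumour suppressor gene that spans a fragile site, 7.94. In shARID1A cells 2 of these 8 sites held an H3K9me3 peak and none held a SETDB1 peak against input. The folds chose all these genes and are given as a description.

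In the input lists the enzyme spread more evenly over the chromosomes than the mark did. SETDB1 density lay between 6.81 peaks per Mb on the X chromosome and 36.1 on chromosome 12. H3K9me3 density lay between 3.56 on the X chromosome and 51.15 on chromosome 8. Across the 23 chromosomes the densities ranked together (Spearman rho 0.82, over peaks that share an input, a description). Chromosome 19 stood apart, with 29.4 SETDB1 and 7.71 H3K9me3 peaks per Mb, a ratio of 3.81 that no other chromosome reached, the next being 1.91 on the X chromosome. Against IgG SETDB1 density ran from 12.9 on the X chromosome to 71.2 on chromosome 19. H3K9me3 density ran from 21.3 on the X chromosome to 94.3 on chromosome 12, with 79.7 on chromosome 19. Against IgG the enzyme was thus not spread more evenly, and SETDB1 peaks on chromosome 19 were not denser than H3K9me3 peaks. A smaller relative excess remained: chromosome 19 held 3.65% of SETDB1 and 2.06% of H3K9me3 peaks against IgG. Against input it held 2.17% and 0.491%.

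On chromosome 19 the mark was at 9.23% of 1723 SETDB1 peaks, against 22.6% of 77681 on all other chromosomes, a difference of −13.4 percentage points (−14.7 to −11.9). Every other chromosome lay between 18.0% (X) and 25.65% (10). This rested on H3K9me3 called against input. Against IgG chromosome 19 had 26.4% and the rest 27.4%, and SETDB1 against input with H3K9me3 against IgG gave 27.6% and 26.7%. With the shARID1A H3K9me3 list chromosome 19 had 23.1% and the rest 20.0%, a difference of 3.11 points (1.17 to 5.18) with the opposite sign.

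**Figure D3:**
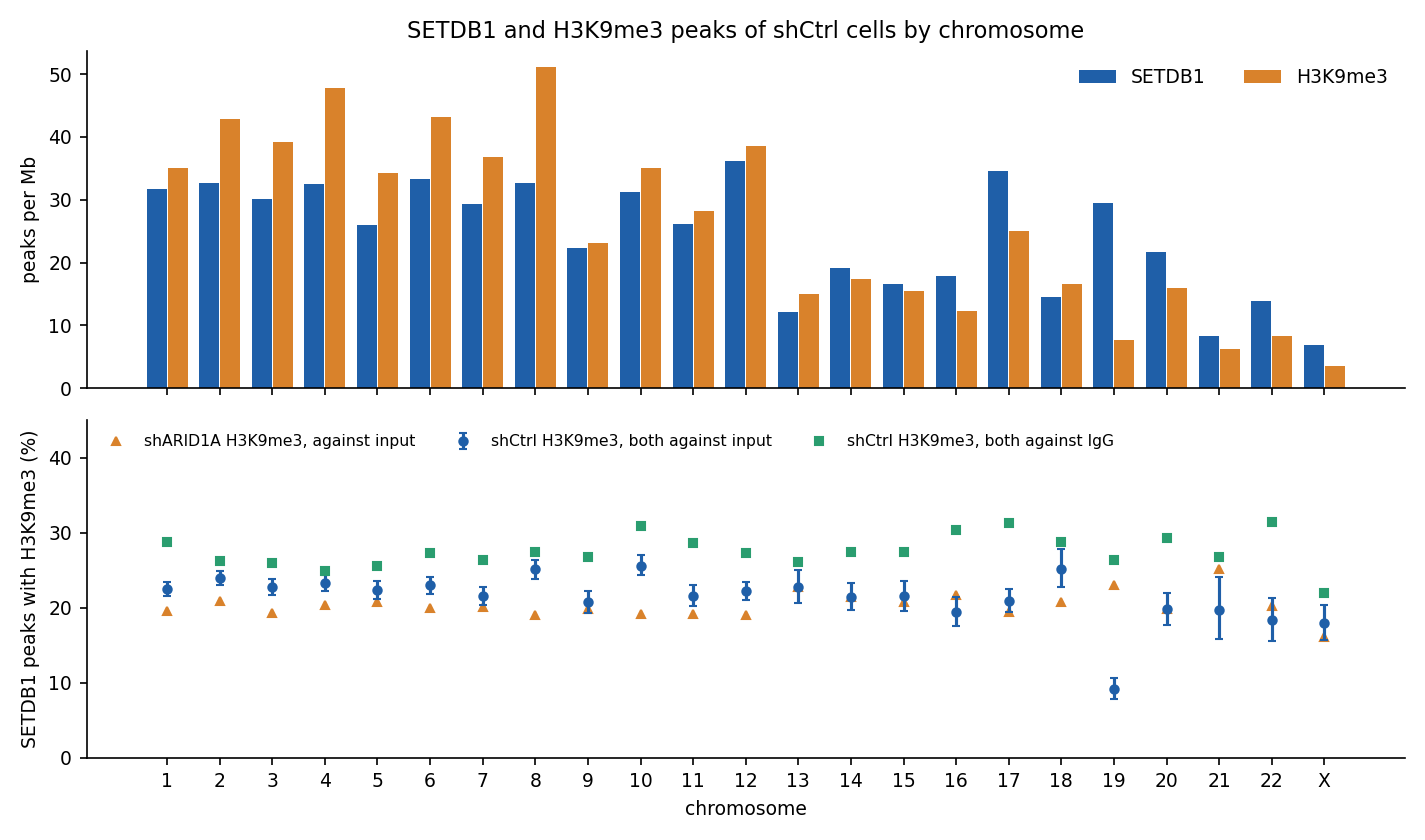
Top, peaks per Mb of SETDB1 and H3K9me3 in shCtrl cells against input for each chromosome. Bottom, share of shCtrl SETDB1 peaks that overlap an H3K9me3 peak (%) with exact 95% intervals for the shCtrl input lists; chromosome 19 is low at 9.23% with shCtrl H3K9me3 against input and not with the shARID1A or the IgG lists.

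In bins of 100 kb the pair mostly occurred together. Of 30313 bins 17212 held both (56.8%), 2390 SETDB1 alone (7.88%), 3383 H3K9me3 alone (11.2%) and 7328 neither (24.2%). Against IgG SETDB1 alone held 209 bins (0.69%), and between strong peaks it was 11478 (37.9%), so the class depended on list length. Chromosome 19 had 237 of 587 bins with both and 187 with SETDB1 alone. On that chromosome 16 bins held SETDB1 alone against IgG. The densest SETDB1 bin, chr9:21500001-21600000, held 64 SETDB1 and 37 H3K9me3 peaks, and the densest H3K9me3 bin, chr11:122100001-122200000, held 58 SETDB1 and 42 H3K9me3 peaks. HCT116 carries copy number changes, and their part in these densities was not tested.

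Gene bodies extended by 1000 bp were then sorted by what they held. Of 19974 protein-coding genes 58.7% held SETDB1, 46.8% H3K9me3 and 38.8% both, and 21.7% held both at 1 site. Against IgG these shares were 71.7% for SETDB1, 77.9% for H3K9me3 and 64.6% for both. Strong SETDB1 peaks lay in 43.5% of genes and strong H3K9me3 peaks in 11.7%. A long gene meets more peaks, and the median gene was 24.2 kb long. Zinc finger genes on chromosome 19 that held the enzyme mostly lacked the mark in the input lists. Of 246 genes 25 held both, 109 SETDB1 alone, 3 H3K9me3 alone and 109 neither. Against IgG 129 held both, 39 SETDB1 alone, 26 H3K9me3 alone and 52 neither, so this class depended on the control. Their bodies held 230 separate SETDB1 peaks, and 6 of them (2.61%, 0.963 to 5.59%) carried the mark, beside 23.9% over all genes. With the shARID1A H3K9me3 list 67 of the 230 (29.1%) did, beside 17.2% over all genes. Against IgG 59 of 411 SETDB1 peaks (14.4%) carried the shCtrl mark, beside 29.7%. These genes encode the DNA-binding proteins that bring TRIM28 and SETDB1. ZNF761 had SETDB1 without the mark at a fold of 15.4 and ZNF333 at 13.8, while ZNF83 (8.51) and ZNF180 (7.75) had it with the mark.

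Zinc finger genes elsewhere held both in 96 of 264 (36.4%), which is near the 38.8% of all protein-coding genes. They held SETDB1 alone in 83, H3K9me3 alone in 23 and neither in 62. Of their 523 separate SETDB1 peaks 86 (16.4%, 13.4 to 19.9%) carried the mark, above the interval on chromosome 19 and below the 23.9% over all genes. Against IgG the share was 23.2%, beside 14.4% on chromosome 19 and 29.7% over all genes. With the shARID1A H3K9me3 list it was 27.5%, close to the 29.1% on chromosome 19, beside 17.2% over all genes. ZNF609 (14.6) and ZNF286A (13.5) had the highest SETDB1 folds with the mark, and ZNF200 (19.7) and ZNF75A (17.3) without it.

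Ribosomal protein genes and replication-dependent histone genes, which are short and highly transcribed, held the enzyme and seldom the mark. Of 80 ribosomal protein genes 56 held SETDB1 alone, 12 both (15%), 1 H3K9me3 alone and 11 neither, although their median length was 5.09 kb. Of all 19974 protein-coding genes 3963 held SETDB1 alone and 38.8% both. Strong SETDB1 peaks lay in 50 of the ribosomal protein genes (62.5%) and strong H3K9me3 peaks in none, beside 43.5% and 11.7% of all genes. RPL27 (14.4) and RPL35A (10.3), both of the large subunit, had the highest SETDB1 folds without the mark, and RPL31 (4.46) and RPL37A (4.22) the highest with it. Of 71 histone genes 42 held SETDB1 alone, 7 both (9.86%), none H3K9me3 alone and 22 neither. Strong SETDB1 peaks lay in 46 of them (64.8%), at a median gene length of 0.495 kb, and strong H3K9me3 peaks in none. H2AC15 and H2BC15 share the peak of fold 9.43 without the mark, and H2AC6 and H2BC4 share the peak of fold 10.45 with it. Against IgG both were found in 53 ribosomal protein genes (66.25%) and 37 histone genes (52.1%), beside 64.6% of all genes. With the shARID1A H3K9me3 list against input both were found in 34 (42.5%) and 15 (21.1%), beside 37.15%. For ribosomal protein genes the low share with both thus held for the shCtrl input lists, while histone genes stayed below all genes.

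Clustered protocadherin genes, which encode neuronal adhesion proteins and lie in tandem, held both in 32 of 53 (60.4%), all at 1 site. Of all protein-coding genes 38.8% held both and 21.7% at 1 site. SETDB1 alone was in 2, H3K9me3 alone in 6 and neither in 13. The 32 genes overlap, and the whole cluster held 22 separate SETDB1 peaks, 4 of them with the mark (18.2%). PCDHA1 and PCDHA10 share the site with the mark, at a fold of 6.02 on chr5:141001514-141002586, and the taller one without it, at 12.35 on chr5:140945431-140945811. Of the 53 genes 15 held strong peaks of both, but the cluster held 1 separate strong H3K9me3 peak, so these 15 genes stand for 1 site. The median length of the 53 genes was 110.2 kb, against 24.2 kb for all genes. All 9 UGT1A genes, which encode glucuronosyltransferases that share their last exons, held both, and none at 1 site, with 3 separate SETDB1 peaks of which UGT1A10 and UGT1A6 share the tallest (3.94).

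Olfactory receptor genes, mostly silent outside the nose, were largely empty: 330 of 392 held neither, 16 both, 23 SETDB1 alone and 23 H3K9me3 alone. OR2A14 (6.98) and OR52K1 (5.08) had SETDB1 with the mark, and OR8B3 (8.89) and OR1J2 (7.53) without it. HOX genes held both in 5 of 39, SETDB1 alone in 13, H3K9me3 alone in 4 and neither in 17, led by HOXA3 (9.73) and HOXA10 (3.07) with the mark, and by HOXC4 and HOXC5, which share a peak of 7.28, without it. Both families thus lay below the 38.8% of all genes that held both, but their median lengths were 2.94 kb and 3.79 kb, against 24.2 kb. Against IgG 20 of 39 HOX genes (51.3%) and 31 of 392 olfactory receptor genes (7.91%) held both, beside 64.6% of all genes.

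Germline genes held both in 15 of 33 (45.45%), SETDB1 alone in 6, H3K9me3 alone in 3 and neither in 9. That share is near the 38.8% of all protein-coding genes, and their median length was 46.6 kb, against 24.2 kb. PIWIL4, which binds piRNAs that silence transposons, had SETDB1 with the mark in the input list at 22.6 on chr11:94613104-94613634. TDRD9, a helicase of the piRNA pathway, had SETDB1 with the mark at 6.80 and without it at 9.02, and MAEL had it without the mark at 8.69. Imprinted genes held both in 8 of 29 (27.6%), SETDB1 alone in 3, H3K9me3 alone in 3 and neither in 15. SGCE (8.69) and INPP5F (6.29) had SETDB1 with the mark, and PLAGL1 (13.7) and MKRN3 (9.02) without it. Genes for retroviral envelopes held both in 1 of 11 (9.09%), SETDB1 alone in 3, H3K9me3 alone in 1 and neither in 6, with ERVK13-1 at 5.41 and ERV3-1 at 4.70 without the mark. Against IgG both were found in 24 of 33 germline, 15 of 29 imprinted and 5 of 11 envelope genes, beside 64.6% of all genes.

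**Figure D4:**
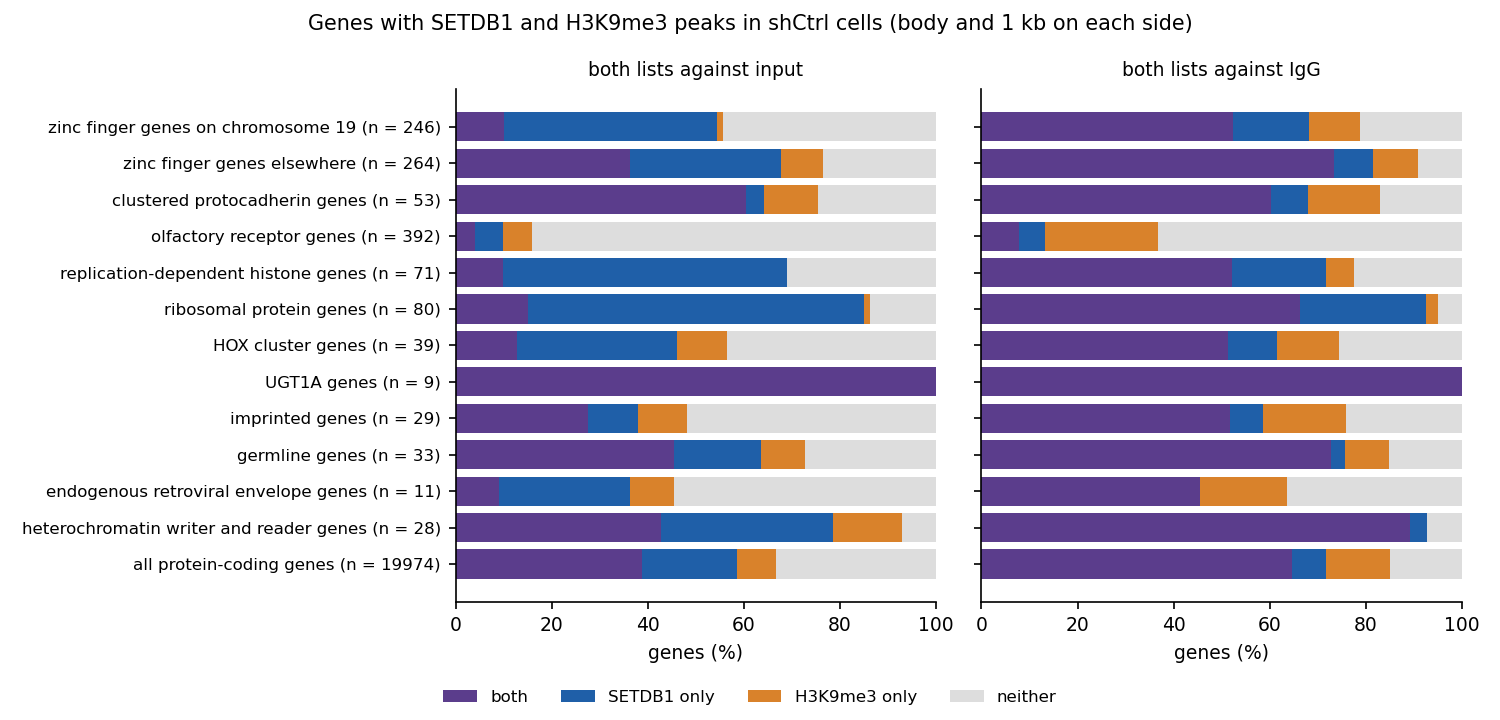
Share of the members of each gene list (%) whose body extended by 1000 bp holds both SETDB1 and H3K9me3, SETDB1 alone, H3K9me3 alone or neither in the shCtrl lists against input (left) and IgG (right), with all protein-coding genes at the bottom. Zinc finger genes on chromosome 19, ribosomal protein genes and histone genes have SETDB1 alone as a large class, and protocadherin and UGT1A genes, which share sites, mostly hold both; against IgG (right) both is the larger class in most lists.

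Genes of the heterochromatin machinery held both in 12 of 28 (42.9%), SETDB1 alone in 10, H3K9me3 alone in 4 and neither in 2. That share is near the 38.8% of all protein-coding genes, and their median length was 49.96 kb, against 24.2 kb. ATF7IP, the partner of SETDB1, was the most heavily covered of the writers and readers described here, with 4 SETDB1 peaks with the mark (highest fold 9.02), 16 without it (highest 19.9) and 7 H3K9me3 peaks (highest 2.85, none strong). The gene SETDB1 held 2 SETDB1 peaks, the taller at 6.84, and no H3K9me3 peak. TRIM28 held 1 SETDB1 peak of 3.48 without the mark, on chromosome 19. The other methyltransferase genes EHMT1 and EHMT2 held 5 and 1 SETDB1 peaks without the mark, at up to 6.08 and 3.48, and no H3K9me3 peak. CBX5, an HP1 protein, held 5 SETDB1 peaks without the mark (up to 9.91) and 1 H3K9me3 peak.

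Against IgG the mark was less rare at these genes, and 25 of the 28 held both, beside 64.6% of all protein-coding genes. EHMT1 held 23 H3K9me3 peaks (highest 5.63, 1 strong), CBX5 held 6 (1 strong), the gene SETDB1 4 (1 strong) and TRIM28 1, while EHMT2 held none.

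MORC2, a partner of the HUSH silencing complex, held 2 SETDB1 peaks without the mark (up to 3.94) and 2 H3K9me3 peaks. SUV39H2, a methyltransferase, and MPHOSPH8, a reader in the HUSH complex, held 1 weak H3K9me3 peak each and no SETDB1 peak, and SUV39H1 held neither. Against IgG SUV39H1 and SUV39H2 held 1 peak of each antibody, MORC2 held 1 SETDB1 and 3 H3K9me3 peaks, and MPHOSPH8 held neither. Outside these, KDM4C, a demethylase of the mark, had SETDB1 with the mark at 4.05, and SMCHD1, a repressor at the inactive X chromosome, had SETDB1 without it at 11.2.

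Close to start sites the mark was rarer at the enzyme. Within 1 kb of a RefSeq start H3K9me3 lay at 14.8% of 6688 SETDB1 peaks. It lay at 22.2% of those between 1 and 10 kb, at 23.3% between 10 and 100 kb and at 22.3% farther out. Within 1 kb minus beyond 10 kb the difference was −8.31 points (−9.22 to −7.37), and −12.0 within classes of width and fold. With the shARID1A list it was −7.82. Against IgG the sign turned, to 3.73 points for both lists and 3.42 for H3K9me3 alone against IgG, so the direction near starts depended on the control.

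Promoters, taken as 250 bases before to 50 after a start site, were compared by their letters. Of 34789 promoters on chromosomes other than 8, 4572 (13.1%) overlapped a SETDB1 peak and 868 (2.5%) an H3K9me3 peak. Both lay at 511, SETDB1 alone at 4061, H3K9me3 alone at 357 and neither at 29860. In the input lists SETDB1 promoters with the mark were poor in CG, with a median of 1.67 CG per 100 bases, against 6.33 where SETDB1 was alone. H3K9me3 alone had 1 and all promoters 4.67. At least 10 CG stood in 26.4% of promoters with both, in 81.0% with SETDB1 alone, in 14.85% with H3K9me3 alone and in 56.35% of all promoters. ARHGAP32, CYP19A1, MEF2C and CXCL8, printed above, are of the first kind and RPL27, HSP90AB1 and ISY1 of the second. Against IgG promoters with both had a median of 5 CG per 100 bases, and those with SETDB1 alone 7. At least 10 CG stood in 64.5% and 83.5% of them. Promoters with both were thus poorer in CG than those with SETDB1 alone, but not poorer than all promoters.

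Seen from the enzyme, H3K9me3 lay at 37.7% of SETDB1 promoters with 0 to 4 CG, at 27.3% with 5 to 9, at 5.62% with 10 to 19 and at 2.85% with 20 or more. Against IgG these shares were 42.3%, 37.6%, 24.6% and 16.5%, in the same order from poor to rich. With the shARID1A H3K9me3 list they were 8.01%, 9.455%, 20.3% and 21.5%, which is the opposite order. Base composition can also move with how well fragments were recovered in a library, and its part was not tested.

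TGANTCA, searched on both strands, stood in 37.4% of promoters with both (33.2 to 41.7%), in 6.40% with SETDB1 alone (5.67 to 7.20%), in 22.4% with H3K9me3 alone and in 7.69% of all promoters. Between strong peaks it stood in 86 of 131 promoters with both (65.65%) and in 7.145% of 3163 with SETDB1 alone. The 131 promoters lay at 120 separate SETDB1 peaks, and the share was 58.5% of 53 protein-coding and 70.5% of 78 lncRNA promoters. Among promoters with fewer than 10 CG the share was 46.3% with both, 15.3% with SETDB1 alone and 12.9% overall. In the strong class the TGANTCA lay at a median of 62 bp from the H3K9me3 summit and 82.5 bp from the SETDB1 summit, and at 126.5 bp from the SETDB1 summit where SETDB1 was alone.

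These promoters overlapped with ARID1A of unmodified cells. That library had a peak at 80 of the 131 promoters with strong peaks of both (61.1%) and at 131 of 3163 with SETDB1 alone (4.14%). Among all 34789 promoters it had a peak at 532. TGANTCA stood in 26.3% of those 532, but in 6.04% of the 2682 promoters with ARID1A of shCtrl cells, beside 7.69% of all promoters. Against IgG TGANTCA stood in 18.7% of promoters with both and 5.55% with SETDB1 alone. With the shARID1A H3K9me3 list it stood in 7.195% of promoters with both and 10.45% with SETDB1 alone, and at least 10 CG in 87.8% and 72.0%, so neither letter pattern of the shCtrl mark was found with that list. The other motifs searched on both strands differed less: CCAAT stood in 35.6% of promoters with both and 43.0% with SETDB1 alone (34.6% of all), GGAAGTG in 14.3% and 19.2% (11.2% of all), and ACTACAANT in 0.979% and 3.72% (1.43% of all). A match says only that these letters stand in the window.

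**Figure D5:**
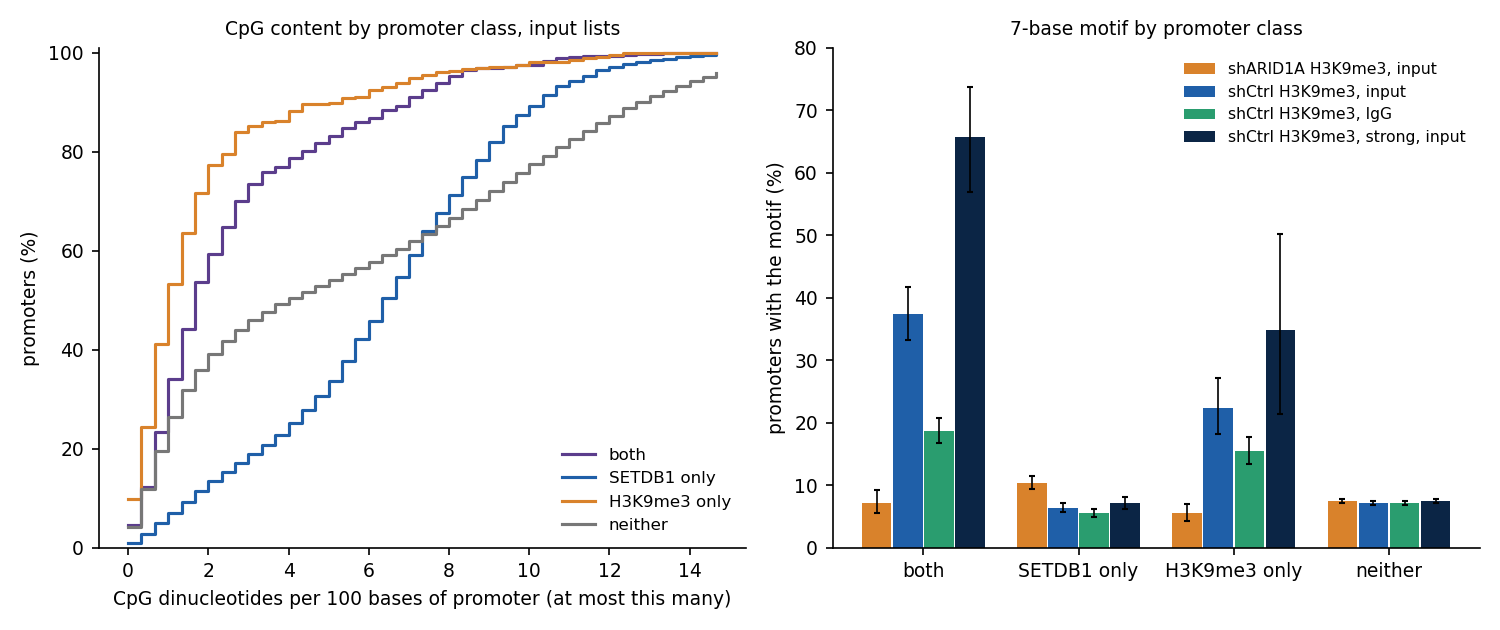
Left, cumulative share of promoters (%) by CpG (CG) dinucleotides per 100 bases for promoters with both peaks, SETDB1 alone, H3K9me3 alone or neither in the shCtrl input lists; the curve stops below 15 CG per 100 bases. Right, share of promoters with the 7-base motif TGANTCA (%) by class under the H3K9me3 lists in the legend, with exact 95% intervals: with both strong peaks of shCtrl cells it is 65.65%, and with both under the shARID1A H3K9me3 list 7.195%.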

How the data were processed

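ChIP-seq libraries of HCT116 cells were used as the peak lists their authors deposited. The submitters' processing notes name MACS2 2.2.7.1, Bowtie2 2.2.5, FastQC 0.11.9, ChIPseeker and deepTools 3.5.1, with the builds GRCh38 and hg38, but no options. The deposited fold enrichment is a ratio by the authors of summit signal to local background, and the deposited −log10 p and −log10 q come from the same call. Peaks were called per library, and the control (input or IgG) was read from each list's name. Depth is not stated. Fragments at each summit were recovered from the deposited fold and p as whole fragments times a scale, for 100% of peaks in the 4 lists (tolerance 0.001 in −log10 p).

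Only chromosomes 1 to 22 and X were used. The main lists are those against input at the authors' threshold with an overlap of 1 bp. A strong peak has q of at most 0.05. Shares have exact Clopper-Pearson and differences Newcombe 95% intervals, for counting error only. With 1 library per group no test between libraries was made and no p-value is given. The 8 alternatives were lists against IgG, both pairings of unlike controls, strong peaks, the top 10000 peaks, an overlap of 50% of the shorter peak, peaks merged within 1 kb and peaks found against both controls; 2 more put the shARID1A or unmodified H3K9me3 list in place. Differences within classes were averaged over 10 classes each of width and fold.

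Genes, start sites and promoter letters came from RefSeq tables of GRCh38.p14. Genes were named by rule: those of the 12 tallest SETDB1 sites with H3K9me3 in both control lists, the 12 with it in neither, the 8 tallest H3K9me3 sites with no SETDB1, the 2 tallest members of each gene list with and without the mark, and 10 heterochromatin genes; 1 gene so named is not reported here. Members, gene lists and rules were chosen with earlier results of these data known. The scripts were tested on simulated data. Python 3.11.15, numpy 2.4.6, pandas 2.3.3, scipy 1.17.1 and matplotlib 3.10.9 were used.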

Additional observations from a re-analysis of the deposited data

Results flagged for a closer look

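Each of 3 results had opposite signs with the H3K9me3 list of shARID1A cells and with that of shCtrl cells, set against the same SETDB1 peaks of shCtrl cells. The difference between the cell states was not tested, since each has 1 H3K9me3 library. The share of SETDB1 peaks with the mark on chromosome 19 minus the rest was 3.11 percentage points with the shARID1A list and −13.4 with the shCtrl list. The share of promoters with at least 10 CG, both peaks minus SETDB1 alone, was 15.8 points with the shARID1A list and −54.5 with the shCtrl list. The share of promoters with TGANTCA, both peaks minus SETDB1 alone, was −3.25 points with the shARID1A list and 31 with the shCtrl list.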

How the results depend on the processing

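Under the 8 alternatives the SETDB1 sites with the mark had a higher median width than those without, by 113 to 296 bp, and a higher median fold, by 0.108 to 0.805, where the lowest value, with the top 10000 peaks, has an interval that includes 0 (−0.00638 to 0.174). The differences for ARID1A of unmodified cells and of shCtrl cells kept their sign as well. For each alternative the values below are the share of SETDB1 peaks with the mark, the share of H3K9me3 peaks with SETDB1, the differences in median fold and in median width (bp) between SETDB1 peaks with and without the mark, and the share of SETDB1 peaks without the mark that lie within 10 kb of one. The main values were 22.3%, 19.6%, 0.575, 132 bp and 58.6%. Both lists against IgG gave 27.4%, 14.2%, 0.622, 123 bp and 85.2%. SETDB1 against input with H3K9me3 against IgG gave 26.7%, 9.55%, 0.402, 113 bp and 84.1%, and the opposite pairing 14.5%, 18.3%, 0.696, 153 bp and 50.7%. Strong peaks gave 11.8%, 65.3%, 0.805, 246 bp and 11.3%. The top 10000 peaks gave 22.3%, 22.7%, 0.108, 296 bp and 11.3%. An overlap of 50% gave 19.5%, 17.1%, 0.693, 155 bp and 60%. Merging peaks gave 23.5%, 19.9%, 0.592, 198 bp and 54.8%. Peaks found against both controls gave 20.1%, 23.4%, 0.642, 150 bp and 43.2%. Chosen after seeing the data, the shARID1A H3K9me3 list gave 20.1%, 28.1%, 0.966, 51 bp and 38.1%, and the unmodified one 1.16%, 8.01%, 0.391, 77 bp and 13.2%.

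Signs turned as follows. Chromosome 19 minus the rest was 0.912 points with H3K9me3 alone against IgG and 3.11 with the shARID1A list. Within 1 kb minus beyond 10 kb of a start was 3.73 with both lists against IgG and 3.42 with H3K9me3 alone against IgG. With the shARID1A list the difference for ARID1A was −4.45 in unmodified and −6.53 in shCtrl cells, and that for TGANTCA −3.25. For SETDB1 of shARID1A cells it was 13.2 with the shARID1A and 8.12 with the unmodified list, and for promoters with at least 10 CG 15.8 and 2.91. The causes were not tested. No paired analysis was possible because each group holds 1 library. Summits of 10 and 6 fragments limit the call of single peaks, list lengths set distances and bin classes, and narrow peaks split wide domains.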
